A study of Homo sapiens with 24 samples.

Results

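The weakly IFNγ-induced expressed probes of SW-13 cells were 137 of the 47231 probes on the array. They were chosen by measured values, namely a small rise with IFNγ, and the rise that chose them is therefore given only as a description. A probe was a member when its signal was detected (detection p-value below 0.01) in all 12 IFNγ-treated arrays and its log2 signal was higher with IFNγ than without by at least 0.4 and less than 0.75, averaged over 4 siRNA backgrounds. Probes whose untreated log2 signal differed by 1 or more between siSUZ12 and siCtrl cells were left out, which removed 7 probes. The detected probes numbered 13509, and 134 of them met the same conditions with an average rise of 0.75 or more. These are called the strongly induced probes.

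The SW-13 line comes from a human adrenocortical carcinoma and lacks the chromatin remodelling ATPase BRG1. All cells went through 2 transfection cycles. The siCtrl cells received 50 nM control siRNA and the siSUZ cells 50 nM siSUZ12, while the siCtrl siBRM and siSUZ siBRM cells received 75 nM siBRM in addition. Each of the 4 backgrounds was left untreated (-IFN) or exposed to IFNγ at 0.1 mg/ml over 6 hours (+IFN), with 3 biological replicates for each of the 8 groups. Cells with siBRM carried 125 nM siRNA in total and cells without it 50 nM, so an effect of siBRM and one of the siRNA load cannot be told apart.

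IFNγ is a cytokine that acts through a receptor on the cell surface and switches on IFNγ-stimulated genes (ISGs), among them antigen presentation genes and chemokines. SUZ12 is a core subunit of PRC2, the complex that places the repressive mark H3K27me3. BRM is the alternative ATPase of the SWI/SNF remodelling complexes, which open chromatin, and in cells without BRG1 it is the remaining one.

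The 24 arrays were Illumina Human-HT-12 BeadChips, on which the brightness of a probe reports the level of its mRNA. Array means lay between 531.8 and 635.2, and 15223 to 16799 probes per array were detected. For all 24 arrays the closest other array was one of the same group. With 3 arrays per group, the number of arrays limits the precision of every difference. No table used here pairs the probe IDs with genes, so the counts are of probes rather than genes, and neither the knockdown of SUZ12 and BRM nor markers of the cell line could be read. In RNA from whole cultures, a change in every cell and a change in some of the cells cannot be told apart.

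The weakly induced probes spanned a wide range of levels. In siCtrl cells without IFNγ the lowest group mean was a scaled signal of 103, the median was 423 and the highest was 11868. With IFNγ the lowest was 148, the median 554 and the highest 15146. Most were expressed before stimulation, since 113 (82.5%) were detected in all 12 untreated arrays, 21 in some of them and 3 in none. The 24 that were not always detected had untreated siCtrl signals of at most 203. The residual SD of the log2 signal had a median of 0.091 over the members and 0.092 over all detected probes, so their replicate spread was that of detected probes at large.

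**Figure D1:**
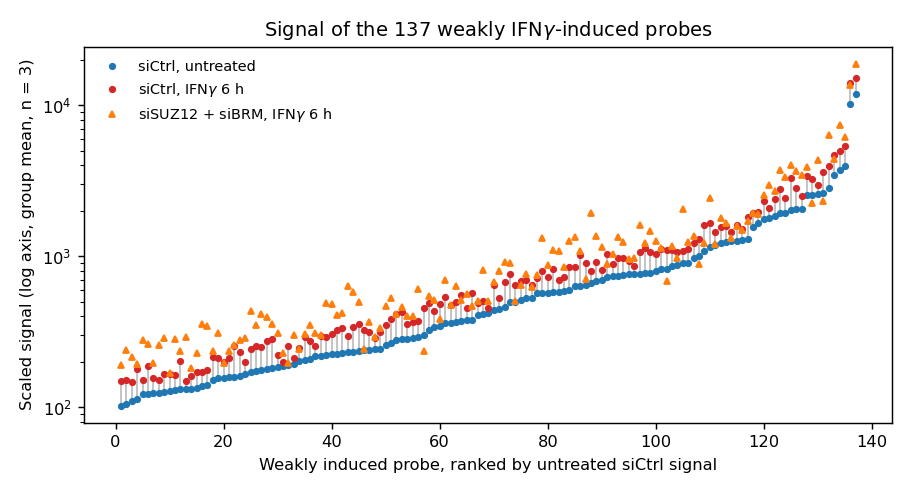
Scaled signal (log axis, mean of 3 arrays) of each of the 137 weakly induced probes, ranked by the untreated siCtrl level, in siCtrl cells without (blue) and with IFNγ (red) and in siSUZ12 + siBRM cells with IFNγ (orange triangles). Untreated siCtrl signals run from 103 to 11868, and the step up to the IFNγ value is short at all levels as scaled. Background signal is not subtracted, which shortens the steps of dim probes.

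The brightest member had signals of 11504, 11869 and 12242 in the 3 siCtrl-IFN arrays and of 15695, 14969 and 14791 in the siCtrl+IFN arrays. Its groups did not overlap, and its log2 difference was 0.35. The dimmest member with IFNγ in siCtrl cells had 98.1, 110.0 and 123.0 without IFNγ, where it was not detected in any of the 3 arrays, and 140.0, 158.0 and 146.0 with it. Its log2 difference was 0.43. Background signal was not subtracted, so the folds of dim probes are understated. In the dimmest 46 members the median average difference was 0.55 as scaled and 0.90 after background correction with neqc, and 37 of them then reached 0.75 or more. In the brightest 46 it was 0.474 and 0.495, and none reached 0.75. The dimmest members thus moved out of the weak range with background correction, while the brightest stayed below its upper limit.

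The size of the rise differed among the siRNA backgrounds. The median log2 difference between +IFN and -IFN was lowest in siCtrl cells (0.395, a 1.32-fold rise, range 0.095 to 0.714), and 90 of the 137 members had their smallest difference there. It was 0.568 in siSUZ cells (1.48-fold, range 0.18 to 1.026) and 0.524 in siCtrl siBRM cells (1.44-fold, range 0.151 to 0.831). It was highest in siSUZ siBRM cells (0.622, 1.54-fold, range 0.322 to 1.265), where 77 members had their largest difference. A 2-fold difference was reached by no member in siCtrl or siCtrl siBRM cells, by 2 in siSUZ cells and by 6 in siSUZ siBRM cells. Over all detected probes the median differences lay between -0.027 and -0.007. All these differences entered the average that chose the members, and carry no test. The sum of the 4 was fixed within limits by that choice, but the order among them was not.

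**Figure D2:**
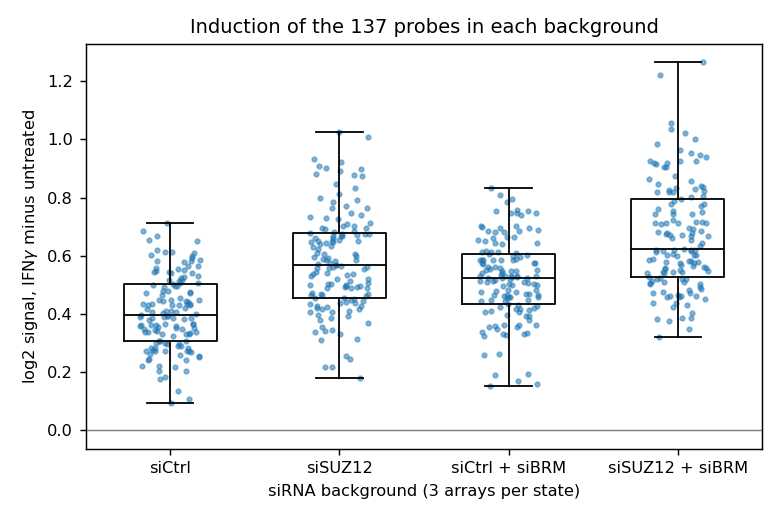
Log2 signal with IFNγ minus untreated for the 137 members in the 4 siRNA backgrounds (points, 1 per probe; box, quartiles and median; whiskers, lowest and highest). Medians are 0.395 in siCtrl, 0.568 in siSUZ12, 0.524 in siCtrl + siBRM and 0.622 in siSUZ12 + siBRM cells.

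The limits of the range cut through a continuous distribution. The 2 members just inside the lower limit averaged 0.4004 and 0.4012, and the 2 probes just outside it 0.3996 and 0.3994. At the upper limit the values were 0.7488 and 0.747 inside and 0.7541 and 0.7581 outside. The siSUZ12 limit was less crowded, with -0.8937 and -0.8726 inside and -1.0478 and 1.067 outside. A total of 36 members averaged under 0.45, next to 51 detected probes between 0.35 and 0.4.

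Does loss of SUZ12 raise these weakly responding probes in IFNγ-treated cells? The siSUZ+IFN and siCtrl+IFN arrays were compared for this, and their difference has no covariance with the 2 differences that chose the members. The detection that members also needed was read from all IFNγ-treated arrays, these included. The rule also let in probes induced mainly in the siSUZ backgrounds. For example, 1 member called higher here had inductions of 0.136 in siCtrl and 0.158 in siCtrl siBRM cells. In siSUZ and siSUZ siBRM cells it had 0.675 and 0.744. The shares of members called may thus follow in part from the choice of members, and how far was not tested. In cells without siBRM, 58 of the 137 members (42.3%) were higher after siSUZ12 and 22 (16.1%) were lower (limma with Benjamini-Hochberg adjustment over all probes, adjusted p-value below 0.05). Over all probes 7.28% were higher and 6.95% lower, and over the detected probes, the closer background, 18.9% and 20.5%. The share higher was thus above both backgrounds, and the share lower was below that of detected probes. The median log2 difference of the members was 0.19 (quartiles -0.06 and 0.42), against -0.01 over detected probes. Among the strongly induced probes 79.9% were higher and 2.99% lower, with a median of 0.53. The share higher of the weakly induced probes lay between those of detected and of strongly induced probes. The differences between these shares were not tested.

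The member with the largest rise was ILMN_1704014. It had 297.0, 293.0 and 303.0 in the siCtrl+IFN arrays and 638.0, 694.0 and 651.0 in the siSUZ+IFN arrays. All siSUZ12 arrays were more than 2-fold above all control arrays, a log2 difference of 1.15 (SE 0.0823, limma adjusted p = 4.08e-13). Without IFNγ its log2 difference was 0.777, where siCtrl arrays had 248.0, 229.0 and 221.0 and siSUZ arrays 433.0, 405.0 and 359.0. The untreated value entered the choice of members and has no test.

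The member with the largest drop was ILMN_1855278. It had 470.0, 452.0 and 447.0 in siCtrl+IFN and 241.0, 262.0 and 251.0 in siSUZ+IFN, with no overlap. Its log2 difference was -0.86 (SE 0.0785, limma adjusted p = 1.66e-10). Its IFNγ response was 0.593 in siCtrl and 0.606 in siSUZ cells on the log2 scale, and its untreated siSUZ12 difference, which has no test, was -0.873. The 4 probes printed by ID were taken from the ends of the tested comparisons after their values were seen.

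The same comparison was available a second time in siBRM cells, from other arrays. There 55 members (40.1%) were higher after siSUZ12 with IFNγ and 5 (3.65%) were lower by limma at an adjusted p-value below 0.05. Over all probes these shares were 4.72% and 3.35%, and over detected probes 11.6% and 10.9%. Among strongly induced probes they were 66.4% and 2.24%. The median log2 difference was 0.18, against 0.005 over detected probes. The limit from the choice of members holds here too. Both sets of arrays called 46 probes higher, which was 79.3% of those called without siBRM and 83.6% of those called with it. Both called 5 lower, which was 22.7% of those without siBRM and all of those with it, and no probe was called in opposite directions. These overlaps of calls were not counted over other probes. The sign agreed at 91 positive and 29 negative members and was opposite at 17. Both differences were positive at 66.4% of members, against 38.3% of detected probes. Across the 137 members the Pearson correlation of the 2 differences was 0.822, close to the 0.82 over detected probes. The members share arrays and scaling within each difference, and are not replicates. The count of 5 was 8 after quantile normalization, and it was 3 without siCtrl siBRM+IFN replicate 3 and 3 without siSUZ siBRM+IFN replicate 1.

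**Figure D3:**
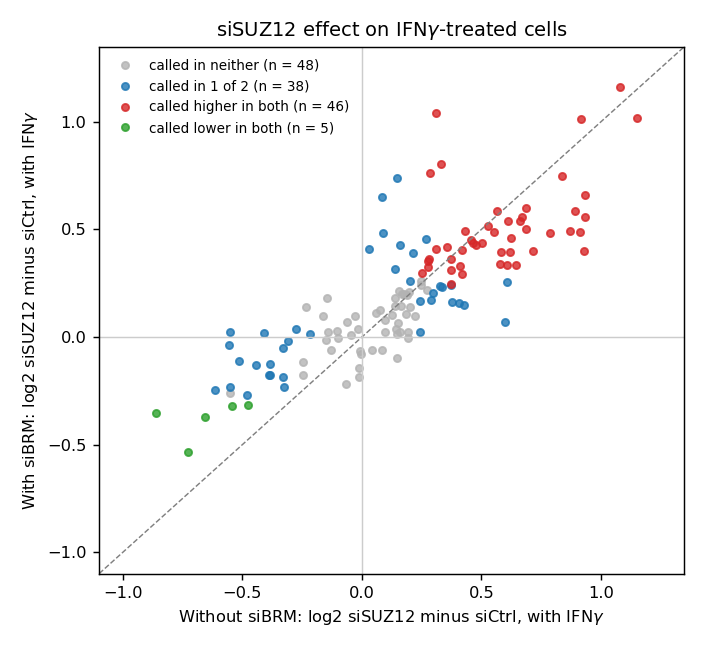
Log2 difference between siSUZ12 and siCtrl in IFNγ-treated cells without siBRM (x axis) and with siBRM (y axis) for the 137 members, coloured by limma calls at an adjusted p-value below 0.05, with the line of equality dashed. The 46 probes called higher in both fill the upper right, the 5 called lower in both sit at the lower left.

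In siBRM cells the largest rise belonged to a member with signals of 916, 786 and 910 in siCtrl siBRM+IFN and of 1948, 2023 and 1871 in siSUZ siBRM+IFN. The groups were far apart, with a log2 difference of 1.16 (SE 0.0821, limma adjusted p = 6.29e-13). Without siBRM its difference was 1.08. The largest drop was that of ILMN_1777139, which had 923.0, 903.0 and 1170.0 in siCtrl siBRM+IFN and 609.0, 736.0 and 715.0 in siSUZ siBRM+IFN. Its control arrays were spread more widely than those of the other printed probes, yet the groups did not overlap (log2 -0.53, SE 0.111, limma adjusted p = 0.000933). ILMN_1704014 was again higher, with 331.0, 280.0 and 327.0 against 645.0, 584.0 and 669.0 (log2 1.02).

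**Figure D4:**
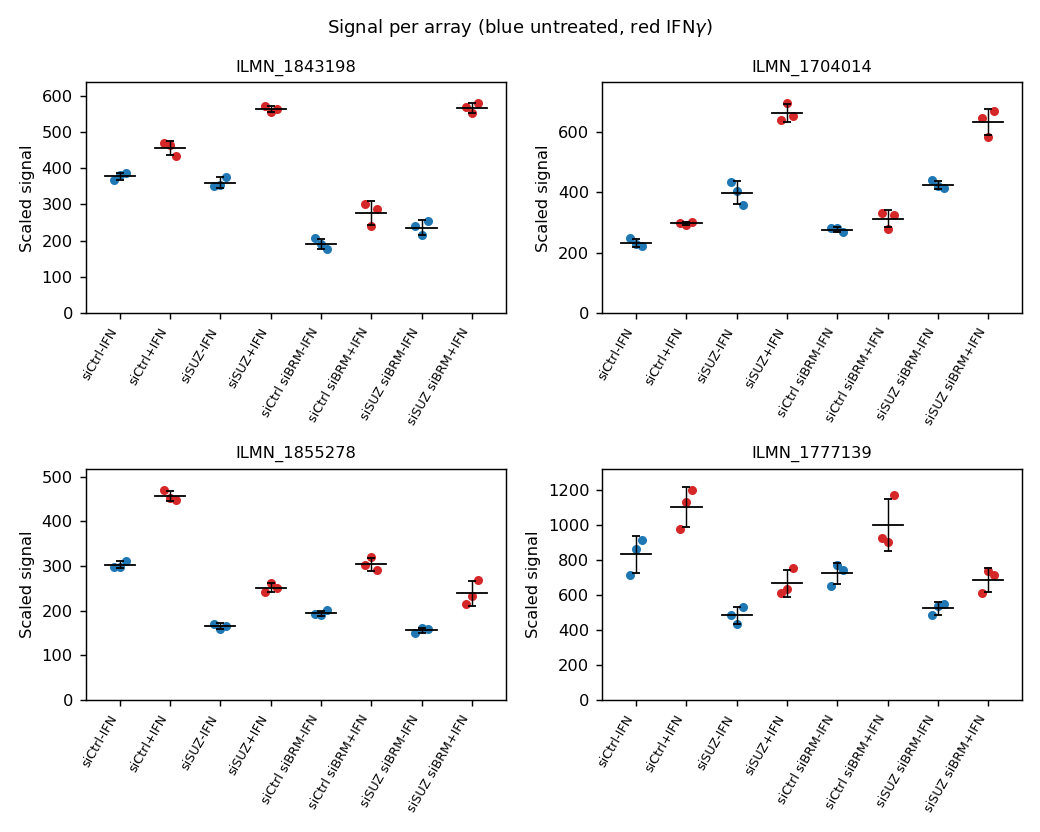
Scaled signal of the 4 printed probes in each of the 24 arrays by group (points; horizontal line, mean of 3; bar, 1 SD), blue without and red with IFNγ. ILMN_1704014 is between 584 and 694 in both siSUZ12 groups with IFNγ and at most 331 in the matching controls, and ILMN_1843198 has its steepest rise, from 236 to 566, in siSUZ siBRM cells.

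In untreated siBRM cells fewer members were called. There siSUZ12 raised 28 members (20.4%) and lowered 10 (7.3%) by limma at an adjusted p-value below 0.05, against 5.04% and 2.98% of all probes and 12% and 9.9% of detected ones. This split depended on the scaling, with 23 higher and 19 lower after quantile normalization and 28 and 18 after neqc. The 28 were 16 without siCtrl siBRM-IFN replicate 3. The median log2 difference was 0.046, and 82 members (59.9%) were above 0, near the 53.3% of detected probes. After quantile normalization the median was 0.009 with 73 members above 0, and after neqc it was 0.011. Of the 28, 25 (89.3%) were also among the 55 higher with IFNγ, and they made up 45.5% of those. This overlap was not counted over other probes. The other 30 probes called higher with IFNγ were not called higher in untreated cells, which does not show that their effect differed between the states. The largest untreated difference was in a member with 140, 158 and 149 in siCtrl siBRM-IFN and 300, 304 and 293 in siSUZ siBRM-IFN (log2 1.01, SE 0.0886, limma adjusted p = 1.99e-10). With IFNγ its siSUZ12 difference was also 1.01, and its IFNγ response was 0.702 and 0.709 in the 2 backgrounds.

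The difference between the states was tested directly as the effect of siSUZ12 on IFNγ induction in siBRM cells. By limma at an adjusted p-value below 0.05, 6 members (4.38%) had a larger induction after siSUZ12, and 0 a smaller one. Over all probes 0.0974% had a larger and 0.0191% a smaller induction, over detected probes 0.155% and 0.0592%, and over strongly induced probes 8.96% and 0.746%. At an unadjusted p-value below 0.05 the members counted 37 (27%) and 1 (0.73%), against 1.69% and 3.19% of all probes and 2.41% and 3.52% of detected ones. The median change was 0.11 on the log2 scale, and 107 members (78.1%) were above 0, compared with 47% of detected probes. Among strongly induced probes 83.6% were above 0. Detected probes at large had little induction to change, with a median average IFNγ difference of -0.019. The rule also let in probes induced mainly in the siSUZ backgrounds, and some of the 6 were of this kind. Without siBRM, the 6 had inductions of 0.107 to 0.473 in siCtrl cells and 0.568 to 0.77 in siSUZ cells. The member at 0.107 had 0.151 in siCtrl siBRM cells, so only its siSUZ backgrounds brought its average above 0.4. The count of 6 and these contrasts with detected probes may thus follow in part from the choice of members. How far was not tested. With a median SE of 0.118 for the siSUZ12 effect on induction, most single values were close to their error. A small effect at the other 131 members could not be seen with 3 arrays per group. The same change in cells without siBRM, which shares arrays with the choice of members and has no test, had a median of 0.171. It was positive at 110 members (80.3%), against 43% of detected probes. Both changes were positive at 93 members (67.9%), against 23.3% of detected probes.

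**Figure D5:**
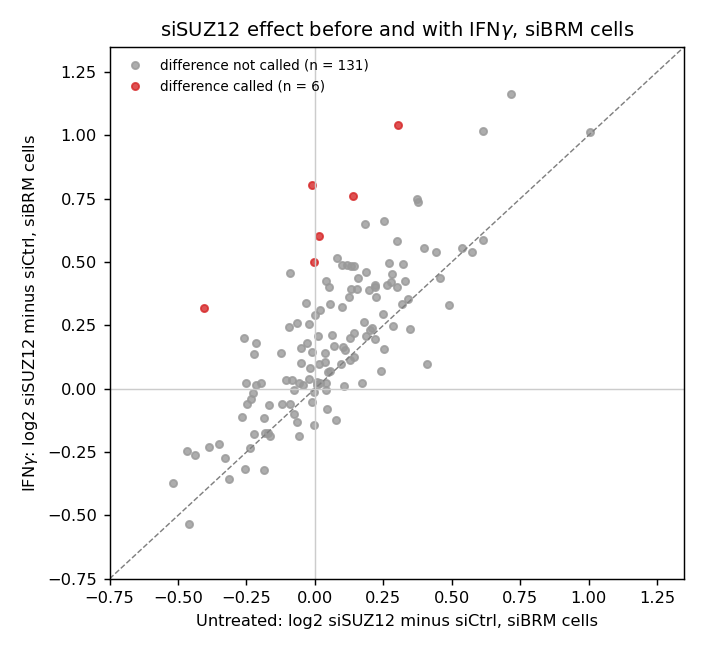
Log2 difference between siSUZ12 and siCtrl in siBRM cells, untreated (x axis) and with IFNγ (y axis), for the 137 members, with the line of equality dashed. Most points lie above the line, and the 6 whose induction differed by limma at an adjusted p-value below 0.05 (red) lie 0.503 to 0.812 above it.

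The 6 members had inductions of 0.151 to 0.524 in siCtrl siBRM cells and of 0.744 to 1.265 in siSUZ siBRM cells. ILMN_1843198 was the second of them by size. It had 206.0, 190.0 and 178.0 in siCtrl siBRM-IFN and 302.0, 239.0 and 287.0 in siCtrl siBRM+IFN. In siSUZ siBRM cells it went from 240.0, 215.0 and 254.0 to 569.0, 551.0 and 579.0. Its induction was thus 0.524 and 1.265, a difference of 0.74 (SE 0.118, limma adjusted p = 0.000733). The largest difference, 0.81 (SE 0.131, adjusted p = 0.000813 by limma), was in a dim member with 114, 119 and 128 in siCtrl siBRM-IFN and 168, 165 and 146 in siCtrl siBRM+IFN. After siSUZ12 it went from 129, 115 and 115 to 300, 259 and 277, and it was not detected in either untreated siBRM group. The third, from 0.151 to 0.875, was the 1 member called lower after siSUZ12 without IFNγ and higher with it. The count of 6 fell to 3 without siCtrl siBRM-IFN replicate 2 and to 3 without siSUZ siBRM+IFN replicate 2. Without all arrays of replicate number 1, 2 or 3 it was 3, 1 and 1. ILMN_1843198 lost its call without replicate number 2 (log2 0.60, limma adjusted p = 0.347).

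The siBRM comparison averaged over siCtrl and siSUZ12 cells and both IFNγ states gave 35 members higher (25.5%) and 19 lower (13.9%) by limma at an adjusted p-value below 0.05. The shares over all probes were 4.72% and 4.95%, and over detected probes 14.6% and 13.7%. Among strongly induced probes they were 43.3% and 8.96%. The share lower was near that of detected probes. The changes were small, with a median of 0.04 and a range of -0.58 to 0.37 on the log2 scale. The lowest value was again that of ILMN_1843198, whose untreated signal was 366.0, 381.0 and 386.0 in siCtrl cells and 206.0, 190.0 and 178.0 in siCtrl siBRM cells (averaged log2 -0.58, SE 0.0418, limma adjusted p = 1.26e-12). Its group means without and with siBRM were 456 and 276 in siCtrl+IFN cells, 360 and 236 in siSUZ-IFN cells, and 564 and 566 in siSUZ+IFN cells, where they were nearly equal. The highest was in a member with 437, 475 and 485 in siCtrl-IFN and 625, 652 and 559 in siCtrl siBRM-IFN (averaged log2 0.37, SE 0.0409, limma adjusted p = 3.12e-08). Neither of these untreated siCtrl pairs overlapped.

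Induction by IFNγ was larger with siBRM than without it at 2 members (1.46%) and smaller at 0, by limma at an adjusted p-value below 0.05. The shares over all probes were 0.0169% and 0.00635%. At an unadjusted p-value below 0.05 the counts were 36 (26.3%) and 2 (1.46%), against 3.65% and 1.28% of all probes and 3.14% and 2.21% of detected ones. The median change was 0.10, and 109 members (79.6%) were above 0, against 49.7% of detected probes. Among strongly induced probes the median was 0.133, 81.3% were above 0, and 3.73% were called larger at the adjusted threshold. Here too detected probes had little induction to change, and the rule let in probes induced mainly in the siBRM backgrounds. The first of the 2 was ILMN_1843198, whose average induction was 0.459 without and 0.894 with siBRM (difference 0.44, SE 0.0835, limma adjusted p = 0.0416). The second went from 0.51 to 0.905 (difference 0.395, SE 0.0748, adjusted p = 0.0416 by limma). Both calls were close to the threshold, and the count was 0 or 1 when any 1 of 22 of the 24 arrays was left out. It stayed at 2 without siCtrl siBRM-IFN replicate 1 or siCtrl siBRM+IFN replicate 2.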

How the data were processed

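SW-13 RNA was labelled as cRNA and hybridized to Human-HT-12 BeadChips. The authors deposited 1 table with the signal intensity of 47231 probes in 24 arrays, not normalized, and a deposited detection p-value for each intensity. Their processing notes name BeadStudio. All columns were matched to sample titles (0 unmatched). The study names average normalization but no formula, so array means were brought to their common mean and signals floored at 16 (0 values reached it) and taken to log2. limma 3.58.1 in R 4.3.3 was fitted once to the 24 arrays with 1 mean for each group (16 residual degrees of freedom), with Benjamini-Hochberg adjustment over 47231 probes and calls at an adjusted p-value below 0.05. The 6 tested contrasts have zero covariance with both differences of the rule, though the detection filter uses the IFNγ-treated arrays. Zero covariance does not keep out probes induced mainly in some of the backgrounds. Permuting 3 arrays against 3 cannot give p below 0.1. The fit was tested on simulated data with 200 changed probes drawn from all 47231, and 0 to 11 false calls. A log2 change of 0.3 was called at 0% of them for the siSUZ12 effect on induction in siBRM cells. For siSUZ12 with IFNγ without siBRM it was 10.5%. At a change of 0.6 these shares were 54% and 94%. For siSUZ12 with IFNγ without siBRM the data had 3440 probes called higher and 3281 lower. The adjusted threshold is therefore less strict there than in the simulation, whose shares are not the power in these data. Members, lists and tests were chosen with earlier results of these data known. Printed probes are ends of the tested contrasts, at most 2 IDs that rose and 2 that fell, because the IDs have no gene names here. Alternatives were quantile normalization, neqc, a floor of 64, a detection filter, trend and robust eBayes, fewer groups, a replicate block, fold limits and leaving out arrays. Plots used matplotlib 3.10.9 in Python 3.11.15.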

Additional observations from a re-analysis of the deposited data

Results flagged for a closer look

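In siBRM cells, the IFNγ induction of 6 weakly induced probes differed between siSUZ12 and siCtrl cells by a test of the difference itself (limma, adjusted p-value below 0.05), and it was larger after siSUZ12 at each. These 6 were 4.38% of the members, and a larger induction was called at 0.0974% of all probes and 0.155% of detected ones. The differences of the 6 were 0.503 to 0.812 on the log2 scale. The same difference without siBRM was 0.204 to 0.578, but it shares arrays with the choice of members and has no test. The count of 6 ranged from 1 to 6 without 1 array or replicate number. IFNγ induction also differed between cells with and without siBRM at 2 probes by a test of the difference itself, with differences of 0.436 and 0.395. These 2 were 1.46% of the members, and a larger induction was called at 0.0169% of all probes and 0.0592% of detected ones. The rule likewise let in probes induced mainly in the siBRM backgrounds. The count of 2 ranged from 0 to 2 without 1 array or replicate number.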

How the results depend on the processing

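Applying the rule again gave 136 members after quantile normalization (127 shared with the 137), 181 after neqc (84 shared), 140 at a detection p-value below 0.05, 144 without the siSUZ12 limit, and 128 to 153 without 1 array or replicate number. The replicate block moved no count of calls by over 1.5 times (58 and 23 with IFNγ without siBRM, 55 and 5 with siBRM). Same-numbered arrays correlated at -0.102 to 0.402 in their deviations from the group means (median 0.138), with 51 of 84 pairs over 0.1. Differently numbered arrays correlated at -0.340 to 0.192 (median -0.054), with 20 of 168 pairs over 0.1. Of the 24 arrays, 16 correlated best with their own number. Arrays of the same number thus tended to deviate together, and the main fit had no term for the number. The replicate block was the fit that had one. With IFNγ in siBRM cells the probes lower after siSUZ12 were 8 after quantile normalization and 8 after neqc, 12 among probes detected in at least 3 arrays, 10 with trend and robust eBayes and 3 in a fit of only the groups compared. In untreated siBRM cells the lower probes were 19, 18 and 20 under the first 3. The larger inductions after siSUZ12 in siBRM cells were 10 with the detection filter and 10 with trend and robust eBayes. With a 1.5-fold limit the higher and lower counts after siSUZ12 were 23 and 4 with IFNγ without siBRM, 12 and 0 with siBRM, and 4 and 0 untreated, and with a 2-fold limit 2 and 0, 4 and 0, and 1 and 0. The siBRM counts and the change of induction with siBRM were 0 under both limits, and the larger induction after siSUZ12 was 0 at 2-fold. Without 1 array or replicate number, the larger inductions after siSUZ12 ranged from 1 to 6, the probes lower with IFNγ in siBRM cells from 2 to 6, those higher and lower untreated from 13 to 28 and 2 to 12, those higher and lower after siBRM from 19 to 35 and 11 to 20, and the larger inductions with siBRM from 0 to 2. Single arrays that moved a count by over 1.5 times were siCtrl siBRM+IFN replicate 3 and siSUZ siBRM+IFN replicate 1 (3 lower with IFNγ), siCtrl siBRM-IFN replicate 3 (16 higher untreated), and siCtrl siBRM-IFN replicate 2 and siSUZ siBRM+IFN replicate 2 (3 larger inductions after siSUZ12). The larger inductions with siBRM fell to 0 or 1 without any 1 array other than siCtrl siBRM-IFN replicate 1 and siCtrl siBRM+IFN replicate 2. ILMN_1843198 lost its call for induction without replicate 2 (log2 0.60, limma adjusted p = 0.347). For both siBRM comparisons all 8 groups enter the contrast, so a fit of fewer groups gave no separate value. Apart from construction (fewer probes tested, fewer arrays, a fold limit), the cause was not tested.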
